A study of Mus musculus with 13 samples.

Results

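The genes of vesicle traffic were followed through the development of the mouse submandibular gland. They comprised the Rab GTPases, the SNARE proteins of the VAMP, syntaxin and SNAP25 families, the syntaxin-binding proteins, the synaptotagmins and the synaptotagmin-like proteins (Slp, encoded by the Sytl genes). Members were chosen by gene symbol alone, and 110 of the 23364 genes in the deposited tables matched: 57 Rab, 7 Vamp, 15 Stx, 5 Stxbp, 4 Snap, 17 Syt and 5 Sytl genes. Of these, 100 reached 1 FPKM (fragments per kilobase of gene, scaled to the depth of the library) in at least 1 sample and were tested.

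RNA was taken from submandibular glands of C57BL/6 mice on the embryonic days E14.5 (3 samples), E16.5 (2 samples) and E18.5 (2 samples), on postnatal day 5 (P5, 2 samples), and from animals of 4 weeks (4wk, 2 samples) and 12 weeks (12wk, 2 samples). No sample carried a mutation, a transgene or a treatment. Glands of several embryos were pooled for each embryonic sample, the sex of the embryos and of the P5 pups was not determined, and the 4wk and 12wk animals were male, so age and sex cannot be told apart in comparisons with the adult gland. The 3 stages compared were the embryo (7 samples from E14.5 to E18.5), the P5 neonate and the adult (4 samples from 4wk and 12wk). The p-values given here measure the spread between these samples, which may in part be technical. In the stage comparisons that spread also held the differences between the ages pooled within the embryo and within the adult.

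In exocrine cells, secretory proteins are packed into granules that wait below the apical membrane until a stimulus triggers their fusion. Rab GTPases mark each membrane compartment and recruit tethers, motors and other effectors, with Rab3D, Rab26, Rab27A and Rab27B being the members best known on secretory granules. Fusion is carried out by SNARE proteins, in which a VAMP on the vesicle pairs with a syntaxin and a SNAP25-type protein on the target membrane, while Munc18 proteins (Stxbp genes) guide the assembly and synaptotagmins provide calcium sensing. Slp proteins are effectors that link Rab27 to the plasma membrane.

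The libraries held between 5817293 (4wk replicate 1) and 48314162 (P5 replicate 1) reads on genes, as recovered from the FPKM values. The 10 highest genes of a sample took as little as 5.93% of its FPKM in the embryo and as much as 61.1% in the adult, so FPKM were rescaled between samples by median-of-ratios factors. In log2 FPKM, this rescaling raised adult-minus-embryo differences by 0.95 against the deposited values, P5-minus-embryo differences by 0.27 and adult-minus-P5 differences by 0.68. On the log2(FPKM + 1) scale of the tests, adult-minus-embryo changes shifted by less. Their median over all tested genes was -0.076 rescaled and -0.75 as deposited. The labelled tissue fitted its markers: all 5 acinar markers were higher in the adult than in the embryo, and their summed level went from between 38.3 and 52.9 FPKM at E14.5 to between 126756.7 FPKM and 250897.2 FPKM in the adult samples. 2 libraries stood apart. E14.5 replicate 1 had a summed level of the epithelial markers Epcam and Cdh1 of 112.5 FPKM against 189.1 and 190.9 FPKM in the other E14.5 samples, and of 10 neuronal markers of 156.1 FPKM against 103.9 and 110.5 FPKM. 4wk replicate 1, the shallowest library, listed 21 of the 110 genes at 0, where the other samples listed from 1 to 6. Of all replicate pairs, the E16.5 samples differed most beyond counting noise in their reads on the vesicle traffic genes (chi-square per degree of freedom 37.7). In these bulk samples, fewer cells of a type and less RNA per cell cannot be told apart.

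Sequence upstream of the gene start is shown for 3 of the granule genes that rose in the adult, Rab3d, Rab27a and Vamp8, and for the Rab27 effector gene Sytl1. The letters searched were the E-box CANNTG, the site of basic helix-loop-helix factors, and its form CATATG, the site known for the acinar factor MIST1 (Bhlha15), which is known to act on Rab3d and Rab26 in exocrine cells. Both read the same on the 2 strands, and CATATG is contained in CANNTG. RefSeq promoter entries (build GRCm38.p6) were found for 86 of the 110 genes, and the 250 bases before the start are printed 5′ to 3′ in the gene's direction, with each CANNTG in capitals.
Rab3d (chr9:21918184-21918433, - strand): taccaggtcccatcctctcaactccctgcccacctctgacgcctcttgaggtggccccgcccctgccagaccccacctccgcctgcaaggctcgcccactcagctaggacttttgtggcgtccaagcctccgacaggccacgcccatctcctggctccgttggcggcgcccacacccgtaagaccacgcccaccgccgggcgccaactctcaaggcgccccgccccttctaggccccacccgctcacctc
Rab27a, distal start (chr9:73044560-73044809, + strand): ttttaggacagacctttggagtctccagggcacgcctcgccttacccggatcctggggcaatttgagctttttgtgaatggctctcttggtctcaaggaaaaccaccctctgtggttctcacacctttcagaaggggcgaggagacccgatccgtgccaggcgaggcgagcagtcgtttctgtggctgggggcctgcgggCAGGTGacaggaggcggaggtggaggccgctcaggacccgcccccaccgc
Rab27a, internal start (chr9:73063898-73064147, + strand): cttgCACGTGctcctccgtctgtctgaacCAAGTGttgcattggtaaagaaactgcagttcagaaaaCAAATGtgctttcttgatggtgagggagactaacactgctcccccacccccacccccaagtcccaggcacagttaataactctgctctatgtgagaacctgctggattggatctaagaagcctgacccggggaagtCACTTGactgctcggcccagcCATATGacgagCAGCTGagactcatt
Vamp8 (chr6:72390668-72390917, - strand): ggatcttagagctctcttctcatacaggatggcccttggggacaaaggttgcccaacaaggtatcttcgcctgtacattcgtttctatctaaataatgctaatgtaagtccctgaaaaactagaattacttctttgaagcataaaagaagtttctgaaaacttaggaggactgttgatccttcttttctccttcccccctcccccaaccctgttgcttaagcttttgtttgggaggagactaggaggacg
Sytl1 (chr4:133263088-133263337, - strand): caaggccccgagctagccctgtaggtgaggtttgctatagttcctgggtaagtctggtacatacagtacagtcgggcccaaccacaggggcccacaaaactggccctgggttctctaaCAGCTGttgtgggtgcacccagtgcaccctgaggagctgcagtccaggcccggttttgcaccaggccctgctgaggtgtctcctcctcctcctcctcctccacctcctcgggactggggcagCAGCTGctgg
CANNTG was found upstream of 66.2% of all 32851 starts in the table, and CATATG upstream of 3.46%. The windows of Rab3d and Vamp8 held no CANNTG, and the window of Sytl1 held CAGCTG at 2 places. The distal start of Rab27a held 1 E-box, while its internal start held 6, of which 1 was CATATG. Among the 86 genes, counted over any of their starts, 64 held CANNTG and 2 held CATATG (Rab27a and Stx19). Of the 20 genes with an entry that were higher in the adult than in the embryo, 17 held CANNTG, of the 8 that were lower, 5 did, and of the 51 that were not called, 36 did. Counted in the same way, over any start of a gene, CANNTG was found for 69.3% of all 27025 genes in the table and CATATG for 3.98%. These matches are descriptions of the letters in the windows and were not tested.

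Between the embryo and the adult, 24 of the 100 tested genes were higher in the adult and 10 were lower, at a change of at least 1 on the log2(FPKM + 1) scale and an adjusted p below 0.1 (limma, Benjamini-Hochberg). Over all 14650 tested genes, 13.8% were higher and 14.7% lower. The median log2 change was 0.099 over the tested vesicle traffic genes and -0.076 over all tested genes (-0.51 and -0.75 with the FPKM as deposited). Of the 34 genes, 27 showed no overlap between the 4 adult and the 7 embryonic samples, where 25.6% of all tested genes and 89.9% of all called genes were called without overlap, and the 7 that overlapped were Syt16, Rab27b, Rab20, Vamp1, Sytl3, Vamp8 and Rab15. With the FPKM as deposited, 8 genes were higher and 27 lower, against 5.58% and 38% of all genes, and 18 of the 34 genes kept their call in the same direction (8 higher and 10 lower) while 0 changed direction. Of the 34 calls, 28 held when any 1 of the 13 samples was left out. Without E14.5 replicate 1 the counts were 21 higher and 9 lower, and without 4wk replicate 1 they were 24 and 11. Besides Rab27b, the calls that ended were those of Rab1 (0.99) and Rab33a (-0.97) without E14.5 replicate 1, Rab33a without E14.5 replicate 2 (-0.99), Snap23 without E16.5 replicate 2 (0.98) or either 12wk sample (0.93 and 0.94), and Rab15 and Stx8 as given with these genes. The 8 genes higher under both scalings were Stxbp6, Rab27a, Sytl5, Stx7, Sytl1, Rab3a, Rab26 and Syt16.

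**Figure D1:**
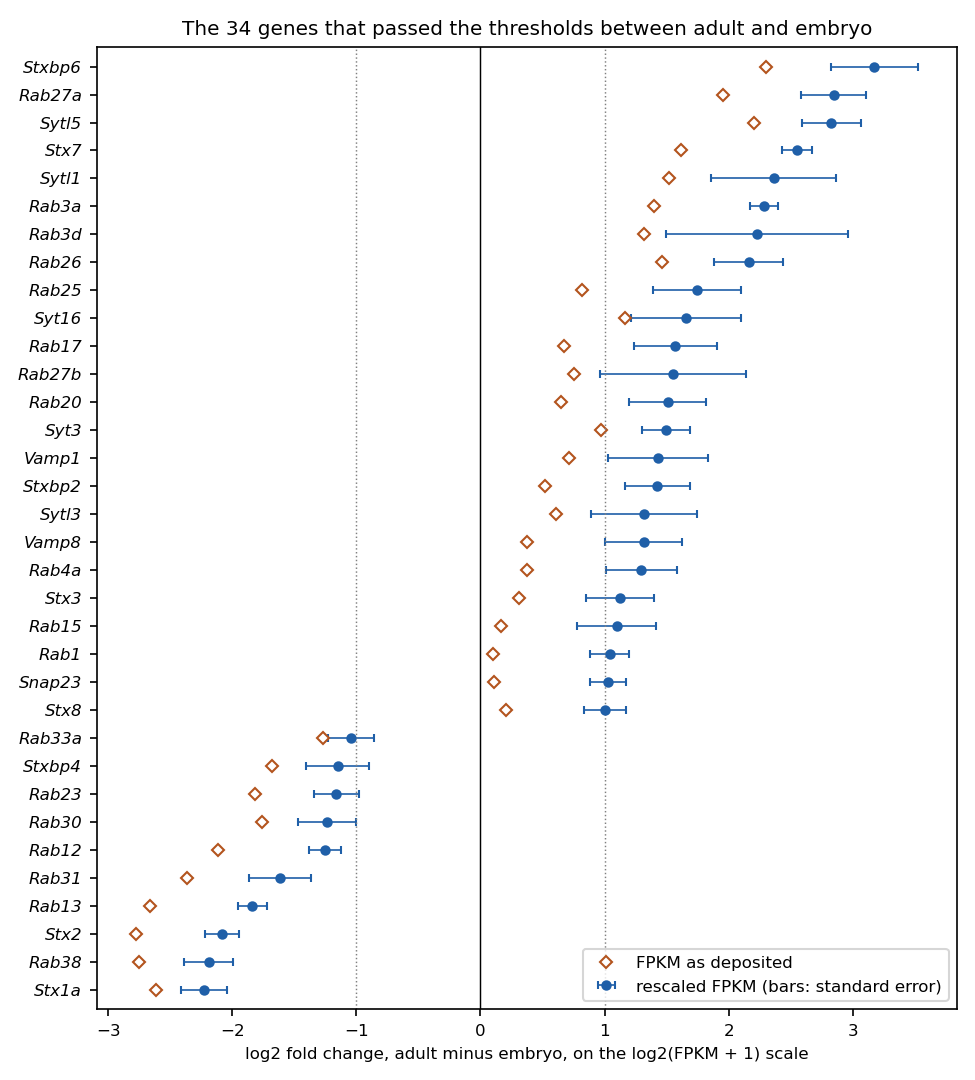
Log2 fold change between adult and embryo on the log2(FPKM + 1) scale for the 34 vesicle traffic genes that passed the thresholds, with filled circles and standard errors for rescaled FPKM and open diamonds for FPKM as deposited. The dotted lines mark a change of 1, and every diamond lies to the left of its circle, with Stxbp6 at 3.17 and 2.30 and Stx1a at -2.23 and -2.62.

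Of the 10 Rab genes of secretory granules and exocytosis, 8 were tested. In the adult, 5 were higher than in the embryo and the other 3 were not called, with a median log2 change of 1.86 (1.04 with the FPKM as deposited, where 3 of the 5 stayed called). Over all tested genes the share higher was 13.8% and the share lower 14.7%, as given above. The same shares stand beside the adult minus embryo counts of each group below. The 5 genes were Rab3a, Rab3d, Rab26, Rab27a and Rab27b. All levels in the following are rescaled FPKM.

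Rab3d (chr9:21711935-21722636 in mm9), the Rab3 form typical of exocrine granules, was measured at 3.48, 4.51 and 3.99 FPKM at E14.5, 29.1 and 32.1 (E16.5), 58.8 and 60.4 (E18.5), 67.9 and 75.4 (P5), 92.2 and 100.2 (4wk), and 63.5 and 68.3 (12wk). The largest step lay between E14.5 and E16.5, where the samples did not overlap, with a log2 change of 2.66 ± 0.11 (SE; adjusted p = 5.274e-07). From E16.5 to E18.5 the change was 0.94 ± 0.12 (adjusted p = 0.00185), just under the fold threshold. The embryonic samples spanned from 3.48 to 60.4 FPKM, and the adult minus embryo change of 2.23 ± 0.73 (adjusted p = 0.0176) was called with rescaled FPKM, while with the FPKM as deposited it was 1.32 (adjusted p = 0.108) and not called. Against P5 the adult level did not pass the test (log2 change 0.15 ± 1.01, and -0.52 as deposited).

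Rab26 (chr17:24664740-24670692), which acts in granule maturation, was at or below 1.04 FPKM in all 5 samples of E14.5 and E16.5, at 2.37 and 3.01 FPKM at E18.5, and at 10.7 and 8.98 FPKM at P5. The adult samples gave 7.38 and 12.6 FPKM at 4wk and 7.64 and 7.52 FPKM at 12wk, all above every embryonic sample. The rise from E18.5 to P5 was 1.55 ± 0.22 (adjusted p = 0.00197), the largest of that step among these genes, and adult minus embryo was 2.16 ± 0.28 (adjusted p = 1.847e-05). Between P5 and the adult the change was -0.17 ± 0.38 and did not pass the test (-0.77 as deposited).

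Rab27a (chr9:72892672-72945399), which docks granules at the plasma membrane, gave 3.42, 5.59 and 5.54 FPKM at E14.5, 6.55 and 6.91 (E16.5), 12.1 and 11.1 (E18.5), and 15.9 and 19.2 (P5). The adult samples gave 37.7 and 61.2 FPKM at 4wk and 63.8 and 63.1 FPKM at 12wk, with no overlap with any earlier sample. The rise was 2.85 ± 0.26 from embryo to adult (adjusted p = 1.049e-06) and 1.41 ± 0.23 from P5 to 4wk (adjusted p = 9.345e-04). The latter was 0.76 and not called with the FPKM as deposited.

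Its close relative Rab27b had its highest values at 4wk, while in the FPKM as deposited they were at E18.5 (15.95 and 15.86, against 13.57 and 14.38 at 4wk). It gave 0.559, 1.38 and 1.34 FPKM at E14.5, 5.46 and 5.19 (E16.5), 13.1 and 13.8 (E18.5), 11.9 and 13.8 (P5), 19.0 and 23.3 (4wk), and 8.82 and 8.24 (12wk). It rose at E16.5 (1.62 ± 0.18, adjusted p = 3.264e-04) and at E18.5 (1.19 ± 0.20, adjusted p = 0.00658), and fell from 4wk to 12wk (-1.21 ± 0.20, adjusted p = 0.00252), each without overlap between the samples compared. The 12wk samples lay below both E18.5 samples. Adult minus embryo was 1.55 ± 0.59 (adjusted p = 0.0349), a call lost with the FPKM as deposited (0.76, adjusted p = 0.255) and without 4wk replicate 2 (1.30, adjusted p = 0.105).

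Rab3a, the Rab3 form best known from synaptic vesicles, stayed between 4.93 and 7.72 FPKM in the 7 embryonic samples, was at 9.77 and 10.2 FPKM at P5, and reached 36.8, 30.2, 32.9 and 36.4 FPKM in the adult samples. The adult minus embryo change was 2.29 ± 0.11 (adjusted p = 3.975e-09) and the step from P5 to 4wk 1.65 ± 0.15 (adjusted p = 2.109e-05, and 0.9996 and not called as deposited). Rab3b and Rab3c, the other neuronal forms, were low throughout. Rab3b did not exceed 0.815 FPKM in any sample, and Rab3c did not reach 1 FPKM as deposited and was not tested.

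The share of each paralog in the summed FPKM of its set moved with age. Rab3d made up between 36.2% and 39% of the summed Rab3 FPKM at E14.5, between 90.1% and 90.9% at E18.5 and between 65% and 65.5% at 12wk, while Rab3a went from between 51.3% and 58.2% to between 8.52% and 9.08% and back to between 33.9% and 34.7%. Rab27b rose from between 14% and 19.7% of the Rab27 sum at E14.5 to between 52% and 55.5% at E18.5 and fell to between 11.5% and 12.1% at 12wk. These shares do not depend on the scaling between samples, and the samples of a time point lay close together beside the differences between time points. They are descriptions, with no test.

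**Figure D2:**
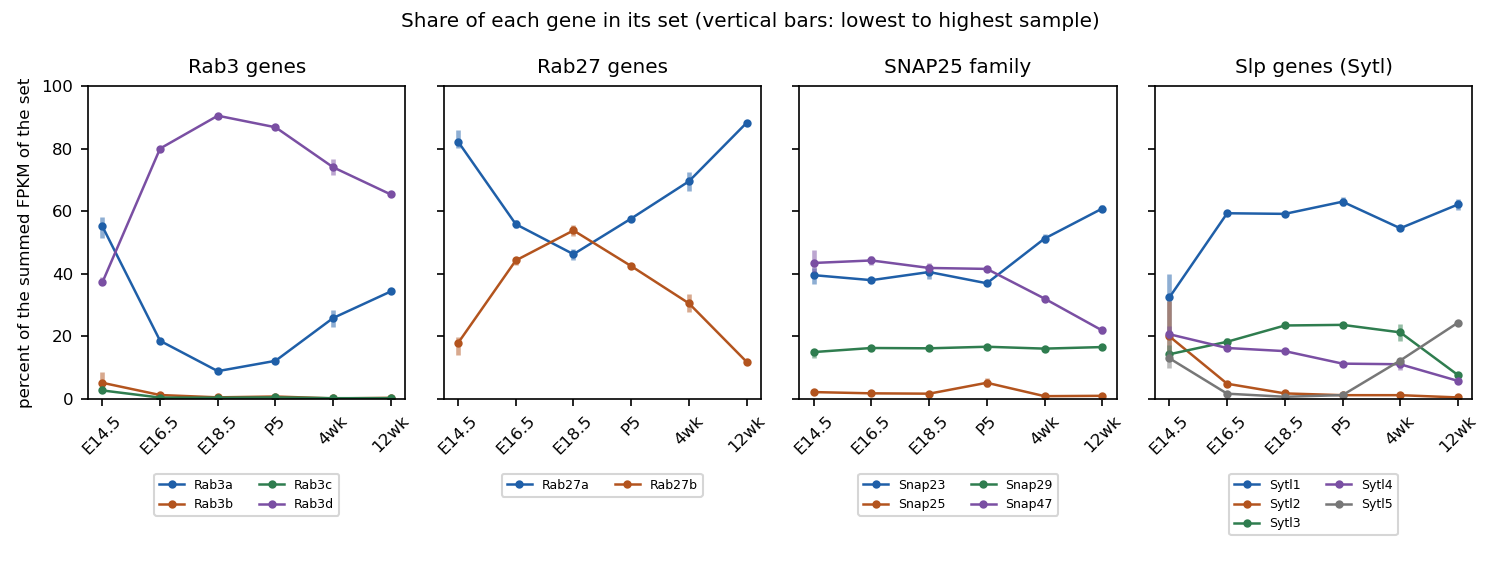
Percent of the summed FPKM of the Rab3, Rab27, SNAP25-family and Slp genes taken by each gene at the 6 time points, with lines for the mean and vertical bars from the lowest to the highest sample. Rab3d and Rab27b peaked as shares at E18.5 (means of 90.5% and 53.8%), and Snap23 passed Snap47 (4wk).

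**Figure D3:**
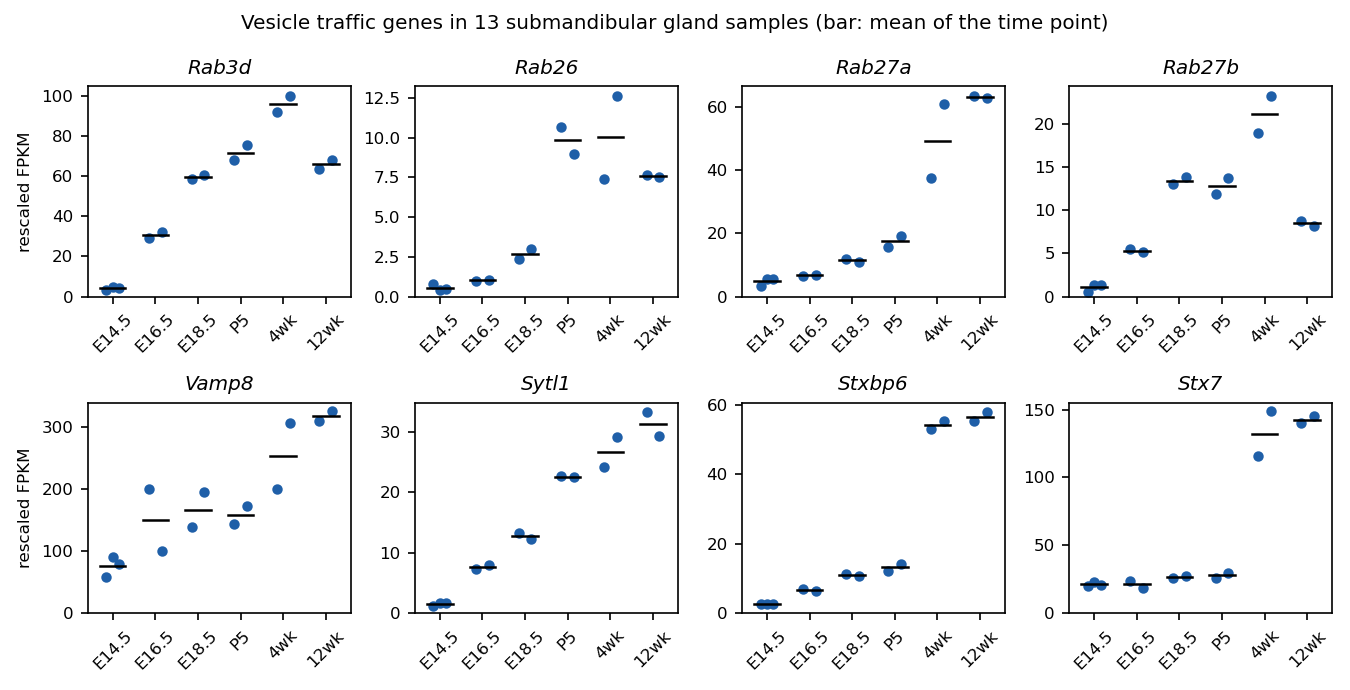
Rescaled FPKM of 8 vesicle traffic genes in each of the 13 samples (points) by time point, with the mean of the time point as a bar and each vertical axis starting at 0. Rab3d, Rab27b and Sytl1 rose within the embryonic time points, Rab26 rose between E18.5 and P5, and Rab27a, Stxbp6 and Stx7 rose most between P5 and 4wk.

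The Slp genes encode Rab27 effectors. All 5 were tested, and Sytl1, Sytl3 and Sytl5 were higher in the adult than in the embryo. Sytl1 (chr4:132809005-132819028) had the highest mean of the 5 at each of the 6 time points: 1.14, 1.70 and 1.68 FPKM at E14.5, 7.26 and 7.96 (E16.5), 13.3 and 12.3 (E18.5), 22.6 and 22.4 (P5), 24.2 and 29.1 (4wk), and 33.2 and 29.3 (12wk). No adult sample overlapped an embryonic sample, and the adult minus embryo change was 2.36 ± 0.50 (adjusted p = 0.00114), with the step at E16.5 (1.79 ± 0.13, adjusted p = 3.170e-05) as its largest. Sytl5 was low until P5, with no more than 1.14 FPKM in any embryonic sample, 0.438 and 0.370 FPKM at P5, 5.02 and 6.99 FPKM at 4wk, and 12.2 FPKM in both 12wk samples. Its rise was 2.83 ± 0.24 from embryo to adult (adjusted p = 4.323e-07) and 2.31 ± 0.21 from P5 to 4wk (adjusted p = 2.271e-05). Sytl3 climbed from between 0.571 and 0.747 FPKM at E14.5 to 8.04 and 13.01 FPKM at 4wk and was at 3.92 and 3.69 FPKM at 12wk, a fall of 1.23 ± 0.20 in the last step (adjusted p = 0.00219) that shrank to 0.91 and was not called without 4wk replicate 2. Sytl2 and Sytl4 passed in no comparison.

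Among the vesicle SNAREs, Vamp8 (chr6:72335217-72340697), the VAMP of granules in exocrine cells, had the highest mean of the 7 Vamp genes at all 6 time points, and made up 51.0% of their summed mean FPKM at E14.5 and 77.3% at 12wk. It gave 58.5, 89.6 and 78.4 FPKM at E14.5, 200.2 and 99.4 (E16.5), 137.7 and 194.3 (E18.5), 142.6 and 172.3 (P5), 199.3 and 306.1 (4wk), and 309.2 and 325.3 (12wk). The lowest adult sample lay just below the highest embryonic sample, and the replicates at E16.5 differed by more than the means of E16.5 and E18.5. The adult minus embryo change of 1.32 ± 0.31 (adjusted p = 0.00234) was not called with the FPKM as deposited (0.37, adjusted p = 0.229), and Vamp8 passed in no step between neighbouring time points. Vamp1, best known from neurons and muscle, rose from E18.5 (4.28 and 3.47 FPKM) to P5 (10.9 and 8.31), fell to 4.502 and 2.97 FPKM at 4wk, and rose again to 15.3 and 10.6 FPKM at 12wk. The log2 changes were 1.12 ± 0.24, -1.17 ± 0.24 and 1.56 ± 0.24 (adjusted p = 0.0145, 0.00305 and 0.00177). The step to P5 was not called as deposited (0.995) nor without E18.5 replicate 2 (0.99) or P5 replicate 1 (0.94), and the step to 4wk was not called without P5 replicate 1 (-0.995) or 4wk replicate 2 (-0.94). Vamp2, Vamp3, Vamp4 and Vamp5 passed in no comparison, and Vamp7 was listed at 0 in all 13 samples. Such a listing does not show that Vamp7 RNA was absent, and Vamp7 entered the summed FPKM above as 0.

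Syntaxins of the plasma membrane and of inner membranes are given in turn. Of the 6 tested plasma membrane syntaxins, Stx3 was higher in the adult and Stx1a and Stx2 were lower, with a median log2 change of -0.52. Of the 8 tested endomembrane syntaxins, Stx7 and Stx8 were higher and the other 6 were not called, with a median of 0.67 (-0.21 as deposited). The Stx8 call lay at the threshold and ended without any 1 of the 3 E14.5 samples, E16.5 replicate 2 or 4wk replicate 1 (from 0.91 to 0.999), with time points averaged by stage (0.98), with upper quartile scaling (0.91) and as deposited (0.20). Stx7 (chr10:23869123-23908765), a late endosomal syntaxin, lay between 18.7 and 29.8 FPKM in the 9 samples up to P5 and at 115.8, 148.8, 139.9 and 145.0 FPKM in the adult samples. The change was 2.55 ± 0.12 from embryo to adult (adjusted p = 2.124e-09) and 2.199 ± 0.15 from P5 to 4wk (adjusted p = 2.470e-06), and both remained called as deposited. Stx7 thereby had the highest mean of the 15 syntaxins at 4wk and 12wk, taking 38.6% and 37.5% of their summed mean FPKM, where Stx12, Stx4a and Stx5a had been highest at earlier time points. Stx3, the apical plasma membrane syntaxin of epithelia, rose from between 2.11 and 2.51 FPKM at E14.5 to between 8.05 and 12.2 FPKM in the adult samples (1.13 ± 0.28, adjusted p = 0.00317, and 0.31 and not called as deposited).

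Stx1a, the syntaxin of neuronal synapses, fell most of all tested vesicle traffic genes. It gave 7.04, 5.08 and 5.78 FPKM at E14.5, 4.71 and 5.26 (E16.5), 3.17 and 3.16 (E18.5), 2.83 and 3.44 (P5), 0 and 0.197 (4wk), and 0.455 and 0.295 (12wk). The adult values stood on 0, 2, 14 and 11 recovered reads. The fall was 2.23 ± 0.19 from embryo to adult (adjusted p = 4.780e-07), and the step from P5 to 4wk was -1.91 ± 0.17 (adjusted p = 1.824e-05). Stx2, which is found at the plasma membrane of many epithelia, went from between 9.03 and 14.52 FPKM in the embryo to 5.57 and 5.43 FPKM at P5 and between 1.60 and 2.32 FPKM in the adult, with no overlap between stages (-2.08 ± 0.14, adjusted p = 5.577e-08). Beside these, the summed level of the 10 neuronal markers ran from 49.5 to 156.1 FPKM in the embryo, was 39.3 and 82.4 FPKM at P5 and ran from 7.0 to 10.9 FPKM in the adult, and 6 of the 10 markers were lower in the adult than in the embryo. In 4wk replicate 1 the neuronal tubulin gene Tubb3 was at 2.79 FPKM. Snap25, the neuronal target SNARE, was at 1.71 and 3.53 FPKM at P5, listed at 0 in 4wk replicate 1 and at 1.44 FPKM in 4wk replicate 2, a change of -1.17 ± 0.40 from P5 to 4wk (adjusted p = 0.0372) that was not called without 4wk replicate 1 (-0.52) or P5 replicate 2 (-0.80). The part of nerve tissue in these falls was not tested.

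Snap23, the widely expressed relative of Snap25, lay between 17.8 and 26.3 FPKM up to P5, at 36.5 and 45.1 FPKM at 4wk and at 61.2 and 60.7 FPKM at 12wk. The adult minus P5 change was 1.37 ± 0.20 (adjusted p = 0.000356, and 0.71 and not called as deposited). Snap47 had the highest mean of the 4 genes from E14.5 to P5, and Snap23 at 4wk and 12wk, where it took 51.0% and 60.8% of the summed mean FPKM. Snap29 and Snap47 passed in no comparison.

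Of the 5 syntaxin-binding proteins, Stxbp2 and Stxbp6 were higher and Stxbp4 was lower in the adult than in the embryo. Stxbp6 (amisyn; chr12:45953475-46175480), which carries a SNARE-like motif and is known to bind syntaxins in place of a VAMP, rose more than any other tested vesicle traffic gene. It gave 2.48, 2.496 and 2.60 FPKM at E14.5, 7.04 and 6.33 (E16.5), 11.1 and 10.8 (E18.5), 12.2 and 14.1 (P5), 53.1 and 55.2 (4wk), and 55.1 and 57.8 (12wk), with an adult minus embryo change of 3.17 ± 0.35 (adjusted p = 5.095e-06). Its rise was called in 2 steps, 1.12 ± 0.10 at E16.5 (adjusted p = 7.923e-05) and 1.96 ± 0.11 at 4wk (adjusted p = 5.561e-07), both under either scaling. Stxbp2 (Munc18-2), the Munc18 form of epithelial and blood cell granules, climbed from 7.62, 9.89 and 8.93 FPKM at E14.5 to 30.4 and 29.4 FPKM at P5 and between 35.6 and 41.1 FPKM in the adult (1.43 ± 0.26, adjusted p = 3.737e-04, and 0.52 as deposited). Stxbp6 replaced Stxbp2 as the gene with the highest mean of the 5 at 4wk and 12wk.

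Synaptotagmins were low. Of the 17 Syt genes, 13 were tested, and the highest mean of any Syt gene at a time point was 7.57 FPKM (Syt16 at 12wk). Syt11 had the highest mean of the family at the 3 embryonic time points, Syt7 at P5 and 4wk, and Syt16 (12wk). Syt7, a calcium sensor of lysosome and granule fusion, gave 4.33 and 4.45 FPKM at P5, 6.15 and 3.56 FPKM at 4wk and 0.116 and 0.527 FPKM at 12wk, a fall of 2.13 ± 0.24 between the adult ages (adjusted p = 0.000257) without overlap. Syt5 was lower at 12wk (0.231 and 0.191 FPKM) than at 4wk (4.40 and 1.28 FPKM), but the change of -1.54 ± 0.34 (adjusted p = 0.0124) shrank to -0.91 and was not called without 4wk replicate 1. Syt16, an atypical synaptotagmin thought not to bind calcium, was at or below 0.443 FPKM in the embryo, at 0 and 3.69 FPKM at 4wk on 0 and 49 recovered reads, and at 6.14 and 9.001 FPKM at 12wk. Its rise from 4wk to 12wk of 1.97 ± 0.51 (adjusted p = 0.0245) fell to 0.85 and was not called without 4wk replicate 1, and was 1.72 (adjusted p = 0.152) and not called without 12wk replicate 2, while adult minus embryo (1.66 ± 0.45, adjusted p = 0.00577) was called under both scalings. Syt1, the synaptotagmin of synaptic vesicles, passed in no comparison and did not exceed 1.41 FPKM.

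The Rab genes of other compartments moved in both directions. So did the tested genes at large, with 13.8% higher and 14.7% lower in the adult (5.58% and 38% as deposited). Of the 12 genes of recycling endosomes and apical traffic, 4 were higher in the adult (Rab4a, Rab15, Rab17 and Rab25) and 2 lower (Rab12 and Rab13), with a median log2 change of 0.092. With the FPKM as deposited 0 of the 12 were higher and 3 lower, and the median was -0.82. Rab25, an epithelial Rab of apical recycling, went from 8.57, 22.8 and 21.2 FPKM at E14.5 to between 35.8 and 48.5 FPKM from E16.5 to P5 and between 92.6 and 98.0 FPKM in the adult (1.74 ± 0.35, adjusted p = 8.174e-04, and 0.82 and not called as deposited). Its rise at E16.5 and that of Rab17, another epithelial Rab (1.19 ± 0.31 and 1.04 ± 0.31), were not called without E14.5 replicate 1 (0.77 and 0.67), the sample with the low epithelial markers, nor without E16.5 replicate 1 (1.099, adjusted p = 0.123, and 0.86, adjusted p = 0.221). Rab15 was between 17.1 and 51.8 FPKM in the samples up to 4wk and at 133.1 and 116.1 FPKM at 12wk, a rise of 1.28 ± 0.26 in the last step (adjusted p = 0.00738) under both scalings. Its adult minus embryo call ended without E14.5 replicate 1 (0.92), without either 12wk sample (0.85 and 0.92), with upper quartile scaling (0.99) and as deposited (0.17). Rab13, known from tight junctions, fell from between 18.4 and 24.4 FPKM in the embryo to 10.6 and 12.7 FPKM at P5 and between 4.27 and 6.08 FPKM in the adult, without overlap (-1.84 ± 0.12, adjusted p = 4.291e-08). Rab11a and Rab10, widely used Rabs of recycling and exocytic traffic, passed in no comparison, at 34.1 to 51.8 FPKM and 32.7 to 56.0 FPKM over the 13 samples.

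Of the 12 tested Rab genes of early and late endosomes, Rab20 was higher and Rab31 lower in the adult. Rab31 went from between 6.90 and 17.7 FPKM in the embryo to between 2.08 and 4.45 FPKM in the adult (-1.62 ± 0.25, adjusted p = 8.744e-05). Of the 13 tested ER and Golgi Rabs, Rab1 was higher and Rab30 and Rab33a were lower. Rab1, which acts between the endoplasmic reticulum and the Golgi, had the highest mean of all 57 Rab genes at E18.5, 4wk and 12wk, and went from between 81.6 and 136.1 FPKM in the embryo to between 187.7 and 221.7 FPKM in the adult. Its change of 1.04 ± 0.16 (adjusted p = 6.746e-05) lay close to the threshold and was 0.098 with the FPKM as deposited. Of the 8 Rabs of lysosome-related organelles, cilia and other sites, Rab23 and Rab38 were lower and the other 6 were not called. Rab38, known from melanosomes and lung lamellar bodies, was at 6.11 and 7.48 FPKM at P5, 1.07 and 1.94 FPKM at 4wk and 0.384 and 0.529 FPKM at 12wk, a fall of 2.19 ± 0.20 from embryo to adult (adjusted p = 8.422e-07) under both scalings. Rab23, a negative regulator of hedgehog signalling, fell from between 3.64 and 7.41 FPKM in the embryo to between 1.34 and 2.13 FPKM in the adult (-1.16 ± 0.18, adjusted p = 9.863e-05). The mesenchymal markers were lower in the adult than in the embryo as well, with 3 of 3 lower. Their summed level was between 226.5 and 368.9 FPKM in the embryo and 240.3 and 195.2 FPKM at P5. In the adult it was between 17.7 and 65.4 FPKM. Their part in these falls was not tested.

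By P5, 8 of the 100 tested genes were higher than in the embryo and 0 were lower (limma, with 12 lower at an unadjusted p below 0.05), against 5.55% and 3.9% of all genes. They were Rab26, Sytl1, Vamp1, Sytl3, Rab27a, Rab17, Stxbp6 and Stxbp2, with log2 changes from 1.06 to 2.33. The count of higher genes was 1 without P5 replicate 1, 2 without P5 replicate 2 and 5 without any 1 of the 3 E14.5 samples, and 1 gene was lower without E16.5 replicate 2 or either E18.5 sample. Rab26 (2.33 ± 0.36, adjusted p = 0.00181) had the largest change, and its call was the 1 of the 8 that held without any 1 sample. The other 7 ended without either P5 sample, and Rab17, Stxbp2 and Stxbp6 also without any 1 E14.5 sample. Rab3d (2.07 ± 0.94, adjusted p = 0.133) and Rab27b (1.48 ± 0.75, adjusted p = 0.177) did not pass, although both P5 samples of Rab3d lay above all embryonic samples. Both were called with time points averaged by stage (1.78, adjusted p = 9.02e-07, and 1.27, adjusted p = 1.60e-04) and without either E18.5 sample (Rab3d 2.37 and 2.38, Rab27b 1.73 and 1.75). Between P5 and the adult, the adult gland had 9 genes higher and 7 lower, against 6.05% and 8.53% of all genes. The higher genes were Sytl5, Stx7, Stxbp6, Syt16, Rab3a, Rab27a, Snap23, Rab25 and Rab1, and the lower genes Rab38, Stx1a, Rab6b, Rab31, Stx2, Syt9 and Snap25. Sytl5 (2.77 ± 0.33, adjusted p = 7.2e-05) and Rab38 (-2.04 ± 0.27, adjusted p = 0.000196) changed most. Without P5 replicate 2, 3 genes were lower, and Syt16, Rab6b and Rab31 lost their call without either P5 sample (1.72 and 1.92, -1.42 and -1.02, and -1.16 and -1.08). Rab31 was also not called without 4wk replicate 1 (-0.99), nor Rab6b without 12wk replicate 2 (-0.97). Rab25 (1.199, adjusted p = 0.0882) was not called without 8 of the 13 samples taken singly (each P5, 4wk and 12wk sample, E14.5 replicate 2 and E16.5 replicate 2, from 1.09 to 1.31), with no filter (adjusted p = 0.129) or as deposited (0.53). Syt9 was not called without P5 replicate 2 (-0.93) or either 12wk sample (-0.899 and -0.85), nor Snap25 without P5 replicate 2 (-0.65) or 4wk replicate 1 (-0.76).

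**Figure D4:**
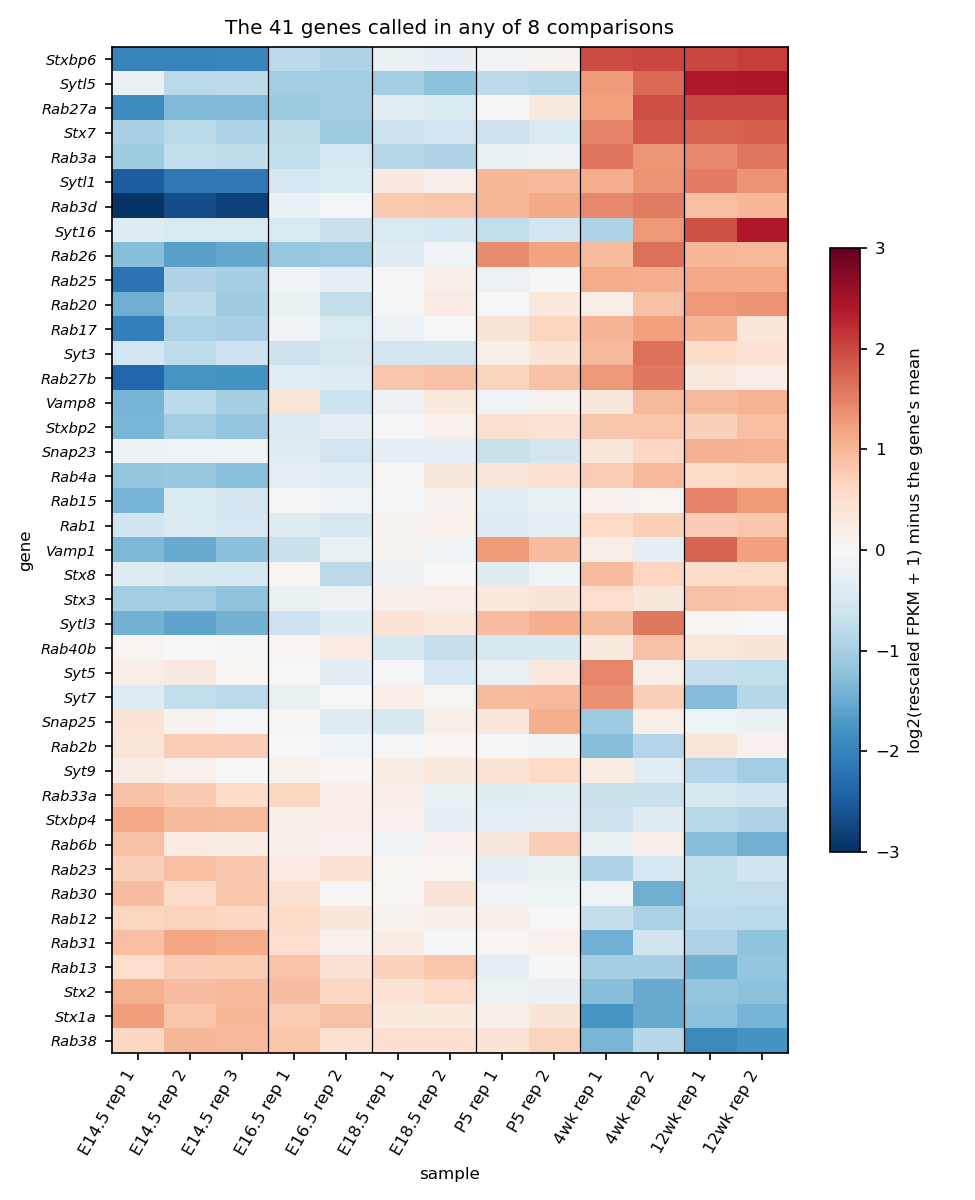
Log2(rescaled FPKM + 1) of the 41 vesicle traffic genes called in any of the 8 comparisons, minus the mean of the gene, in each of the 13 samples (columns), with genes ordered by their mean in the adult samples. Stxbp6, Sytl5 and Rab27a head the order and Rab38, Stx1a and Stx2 close it, and 4wk replicate 1 departs from 4wk replicate 2 in Syt16, Syt5 and Snap25.

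The steps between neighbouring time points called 6, 1, 2, 17 and 9 genes in order of age. From E14.5 to E16.5, 6 genes rose (Rab3d, Sytl1, Rab27b, Rab25, Stxbp6 and Rab17) and 0 fell (limma, with 11 genes lower at an unadjusted p below 0.05), against 3.64% and 0.751% of all genes. Markers of other cells moved at this step too: the 5 skeletal muscle markers summed to between 77.6 and 189.8 FPKM at E14.5, 306.1 and 589.0 FPKM at E16.5 and 1.9 and 17.7 FPKM at E18.5, and the epithelial markers to 256.1 and 327.1 FPKM at E16.5 from between 112.5 and 190.9 FPKM. Their part in the steps at E16.5 and E18.5 was not tested. From E16.5 to E18.5 only Rab27b among the tested vesicle traffic genes rose and 0 fell (8 lower at that unadjusted p), against 1.32% and 1.17%, and 2 genes were called without E16.5 replicate 2 or E18.5 replicate 1. From E18.5 to P5 Rab26 and Vamp1 rose and 0 fell (10 lower at that unadjusted p), against 2.37% and 1.79%, and 1 gene was called without E18.5 replicate 2 or P5 replicate 1. From P5 to 4wk 10 genes rose and 7 fell, against 6.37% and 8.72%. The genes that rose were Sytl5, Stx7, Stxbp6, Rab3a, Rab27a, Rab25, Snap23, Rab40b, Stx8 and Syt3, and those that fell were Stx1a, Rab38, Stx2, Vamp1, Snap25, Rab31 and Rab2b. With the FPKM as deposited, 3 rose and 13 fell at that step, against 2.19% and 22.1% of all genes. With upper quartile scaling, 6 rose and 10 fell, against 730 and 1606 of all 14650 tested genes. Of the 17 calls, 8 held without any 1 sample. Besides those of Vamp1 and Snap25 given above, the calls that ended were Syt3 (0.67), Rab40b (0.76) and Snap23 (0.93) without 4wk replicate 2, Rab31 (-0.68), Rab2b (-0.82) and Stx8 (0.88) without 4wk replicate 1, and Rab25 (1.07, adjusted p = 0.105), Rab2b (-0.998), Stx8 (0.92) and Syt3 (0.8975) without P5 replicate 1. From 4wk to 12wk, Syt16, Vamp1, Rab2b and Rab15 rose and Syt7, Syt5, Rab6b, Sytl3 and Rab27b fell, against 3.62% and 3.24%, and 14 genes were called without 4wk replicate 2. Rab2b, a Golgi Rab, went from 0.961 and 1.62 FPKM at 4wk to 5.12 and 4.26 FPKM at 12wk (1.32 ± 0.19, adjusted p = 0.00113), and Rab6b from 1.98 and 2.80 FPKM to 0.412 and 0.258 FPKM (-1.34 ± 0.24, adjusted p = 0.00406). Over all 8 comparisons, 41 of the 100 genes were called at least once and 59 were never called, where 37.6% of all tested genes were called at least once.

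The 83 partner genes of the pathway comprised the exocyst, other SNAREs, SNARE cofactors and priming factors, Rab regulators, and Rab effectors and motors, and 75 were tested. In the adult 24 were higher than in the embryo and 1 was lower, with a median log2 change of 0.36 (6 and 11, and -0.38, with the FPKM as deposited). Over all tested genes the shares were 13.8% and 14.7% (5.58% and 38% as deposited). The Rab effectors and motors held 9 of these 24, of 16 tested: the Rab27 effectors Mlph, Myrip and Rph3al, the motors Myo5b and Myo5c, the Rab11 effectors Rab11fip1, Rab11fip3 and Rab11fip4, and Rilp. Their median was 1.12 (0.30 as deposited). Of 19 tested SNARE cofactors and priming factors 7 were higher, of 19 Rab regulators 6, of 12 other SNAREs 1 (Bet1) and of 9 exocyst genes 1 (Exoc6).

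Unc13b (Munc13-2), a priming factor for vesicle fusion, gave between 4.31 and 8.57 FPKM in the embryo, 12.0 and 13.2 FPKM at P5, 115.6 and 134.7 FPKM at 4wk, and 223.1 and 227.4 FPKM at 12wk. The samples of the stages did not overlap, and the change of 4.70 ± 0.23 (adjusted p = 3.053e-09) was the largest of any partner gene. Myrip, which ties Rab27 to myosin motors, rose from between 0.228 and 1.70 FPKM in the embryo to 4.90 and 5.75 FPKM at P5 and to 12.9 FPKM or more in each adult sample (3.23 ± 0.23, adjusted p = 1.034e-07). Rab3il1, an exchange factor for Rab GTPases, was the 1 partner gene lower in the adult, from between 9.64 and 14.7 FPKM in the embryo to between 3.53 and 6.06 FPKM (-1.28 ± 0.14, adjusted p = 4.084e-06). All 3 were called under both scalings. From 4wk to 12wk, 0 of the 75 partner genes were called by limma, against 3.62% higher and 3.24% lower over all tested genes. At an unadjusted p below 0.05 there were 13 higher and 7 lower. From E16.5 to E18.5 also 0 were called (14 higher and 4 lower at that unadjusted p), against 1.32% and 1.17%.

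The 10 genes that were not tested were Rab37, Rab39, Rab3c, Rab9b, Stx11, Syt2, Syt8, Syt10, Syt12 and Vamp7. Apart from Vamp7, they were listed above 0 in at least 1 sample, and Syt10 stood on 1 recovered read in 1 sample.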

How the data were processed

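Gene expression was measured by RNA-seq of total RNA from 13 submandibular gland samples. Per the labels and the study's methods, the authors made TruSeq libraries, mapped reads with TopHat2 2.0.13 and Bowtie2 2.2.6 to mm9, counted them on UCSC genes with featureCounts without reads at several places or on several genes, and derived FPKM with DESeq2 1.10.1. The deposited FPKM are given per gene and sample, with no counts. The methods describe median normalization, but the deposited values had median-of-ratios factors from 1.148 to 1.38 in the embryo and from 0.617 to 0.714 in the adult, and were rescaled by these factors. For genes with recovered whole reads (109 of 110, tolerance 0.005) the reads given are the smallest whole numbers that fit, and depth sets 1 read per kilobase at between 0.0207 and 0.172 FPKM. Uncounted reads of near-identical paralogs can lower both genes.

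Genes reaching 1 FPKM in any sample (14650) were tested on log2(FPKM + 1) with limma 3.58.1 (R 4.3.3, eBayes with a trend) over all samples, with stages or time points as groups and Benjamini-Hochberg adjustment over all of them. Calls needed a log2 change of at least 1 and an adjusted p below 0.1. Before use, the fit recovered most of the changed genes in simulated data. Those data had the same independent noise for every gene and no spread between ages, so they do not test the stage fits of the real samples. Named genes were Rab3d, Rab26, Rab27a, Rab27b and Vamp8, the 5 called genes with the largest rise and fall per stage comparison (3 per step), the highest gene of each family, genes not tested, and the partner genes with the largest changes. All others were chosen after their values were seen. Members, lists and roles were chosen with earlier results of these data known. Positions in mm9 are from GENCODE vM1. Replicates of each time point differed beyond counting noise (chi-square per degree of freedom from 1.94 to 37.7), so none were merged as repeat deposits of 1 library, which does not show that they are independent. No proteins were analysed here.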

Additional observations from a re-analysis of the deposited data

Results flagged for a closer look

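In groups of 4 adult or 7 embryonic samples, 82 groups of the 41 called genes were examined for a sample set apart from the others, and 6 were found. The cutoffs mark about 1 in 20 groups drawn from a single normal distribution. The groups here mixed ages, so that rate need not hold for them. Among the 4 adult samples, Rab26 was highest in 4wk replicate 2 (12.63 FPKM against 7.38, 7.64 and 7.52), as was Rab40b (7.858 FPKM against 4.90, 5.01 and 5.31). Rab27a was lowest in 4wk replicate 1 (37.67 FPKM against 61.2, 63.8 and 63.1), as was Vamp8 (199.3 FPKM against 306, 309 and 325). Among the 7 embryonic samples, Rab6b was highest in E14.5 replicate 1, at 5.29 FPKM against 2.23 to 3.08, the sample with the high neuronal markers. Syt16 was lowest in E16.5 replicate 2, at 0.1938 FPKM against 0.338 to 0.443.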

How the results depend on the processing

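With the FPKM as deposited, adult minus embryo gave 8 higher and 27 lower, P5 minus embryo 5 and 2, and adult minus P5 5 and 13, and the partner genes 6 higher and 11 lower. With upper quartile scaling, adult minus embryo gave 20 higher and 10 lower, and adult minus P5 7 and 9. With a pseudocount of 0.1, more genes were lower (20 in adult minus embryo, 3 in P5 minus embryo, 16 in adult minus P5, and 5 partner genes), and the steps called 12 (E16.5), 3 (E18.5), 26 (4wk) and 15 (12wk) genes. At an adjusted p below 0.05, 5 genes were higher at P5 than in the embryo. Replicate numbers did not pair the samples (mean correlation of same-numbered samples -0.0123 over 30 pairs, from -0.373 to 0.271), and with the number as a replicate block 4 genes were higher at P5 than in the embryo. Leaving out each sample in turn gave 21 to 25 higher and 9 to 11 lower in adult minus embryo, 1 to 11 and 0 to 1 in P5 minus embryo, and 7 to 10 and 3 to 8 in adult minus P5. The steps gave 5 to 7 (E16.5), 1 to 2 (E18.5), 1 to 3 (P5), 12 to 19 (4wk) and 8 to 14 (12wk, highest without 4wk replicate 2), and the partner genes 21 to 27 higher and 1 to 2 lower. Of 100 fold changes of 41 genes, direction changed for adult minus P5 of Rab27b, to -0.55 as deposited, -0.066 with upper quartile scaling and from -0.18 to 0.28 without 1 sample, and of Rab3d, to -0.52 as deposited. As deposited, 67 of the 100 kept their direction and their status as called or not called, and with upper quartile scaling 89. The causes were not tested. The 2 samples of each time point from E16.5 on, and 5817293 reads in 4wk replicate 1, limit what could be seen in low genes such as the synaptotagmins.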
